A study of Homo sapiens with 24 samples.

Results

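The genes described here are the MYC family and a set of its direct growth targets, 10 genes chosen by name from the 33382 genes listed in the expression tables. They are the 3 genes of the MYC proteins (MYC, MYCN and MYCL), the dimer partner MAX, the antagonist MXD1, and the target genes MIR17HG, CAD, ODC1, NCL and NPM1. All 10 passed the filter on low counts, as did 15302 genes in total. Their expression was measured by RNA-seq in SW480 and SW620, 2 human colorectal adenocarcinoma lines that were derived from the primary tumour and from a metastasis of the same patient. SW480-Tet2CD and SW620-Tet2CD cells carried a lentivirus for the catalytic domain of TET2, an enzyme that oxidises 5-methylcytosine in DNA, and SW480-vector and SW620-vector cells carried the empty lentivirus. All cells were kept in 5 µg/ml puromycin and grown in DMEM with serum. Each of the 4 lines of cells received 4 ng/ml TGFB1 (the cytokine transforming growth factor beta 1), 1 µM RepSox (which blocks ALK5, the type I receptor of TGF-beta) or the solvent DMSO for 24 h, as the labels give. The study's text describes a mixture of TGF-beta isoforms in place of TGFB1 alone, at another dose, and a longer treatment with both agents. This gave 12 groups of 2 libraries, 24 libraries in all. Tet2CD is an overexpressed fragment of TET2, whether the transduced cells were 1 clone or a pool was not given, and no source says whether paired libraries stem from different cultures. The p-values therefore measure the spread between libraries, which may be technical.

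MYC proteins are transcription factors that bind DNA as dimers with MAX, preferentially at the E-box motif CACGTG, and raise transcription of genes for nucleotide synthesis, polyamine synthesis and ribosome assembly. MXD1 and its relatives compete for MAX and recruit repressors to the same sites. In the colon MYC is a target of the WNT/β-catenin pathway, and in epithelial cells TGF-beta signalling is known to repress MYC and to raise inhibitors of the cell cycle.

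Of the targets, MIR17HG is the host gene of the miR-17-92 cluster, which lies on chromosome 13 at positions 91350605 to 91351391 of GRCh38.p14, on the plus strand. The main arms of its 6 microRNAs are shown, as given by RefSeq, because MIR17HG was one of the genes that moved with TGFB1. The seed, bases 2 to 8, is in capitals.
hsa-miR-17-5p: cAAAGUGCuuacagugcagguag
hsa-miR-20a-5p: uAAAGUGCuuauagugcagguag
hsa-miR-18a-5p: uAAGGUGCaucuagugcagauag
hsa-miR-19a-3p: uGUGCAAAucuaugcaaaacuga
hsa-miR-19b-3p: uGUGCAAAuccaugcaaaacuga
hsa-miR-92a-3p: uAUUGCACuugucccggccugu
The arms of miR-17 and miR-20a share a seed, the arms of miR-19a and miR-19b share another, and those of miR-18a and miR-92a each have their own. The mature microRNAs were not measured by these libraries, and MIR17HG stands for the level of the host transcript only.

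The E-box CACGTG, which reads the same on both strands, was searched in RefSeq promoter windows reaching from 250 bases before to 50 bases after a start site. Of 12 windows found for 9 of the 10 genes (the window of MYC was left out), 1 window of ODC1, the gene of ornithine decarboxylase, held it. That window is shown because it holds the motif at 2 places, starting 29 bases before the start site and at base 6 after it, in capitals. It lies on the minus strand at chr2:10447963-10448262 (GRCh38.p14).
ODC1: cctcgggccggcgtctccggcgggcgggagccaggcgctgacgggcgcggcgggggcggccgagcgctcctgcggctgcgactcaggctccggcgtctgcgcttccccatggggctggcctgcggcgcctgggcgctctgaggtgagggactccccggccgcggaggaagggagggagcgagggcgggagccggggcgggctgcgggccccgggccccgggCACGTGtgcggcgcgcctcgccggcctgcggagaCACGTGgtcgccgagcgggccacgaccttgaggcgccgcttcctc
Of all 35116 windows in the table, 7.26% held at least 1 CACGTG and 0.664% held at least 2.

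Total counts per library were between 2146123 and 4410567. TET2 read 270 to 2642 CPM (counts per 1000000 counts of the scaled library) in the 12 Tet2CD libraries and 10.3 to 25.0 CPM in the 12 vector libraries, as the labels give. Among the SW480-Tet2CD cells, the replicate 1 library of each treatment was unlike its partner. The SD of the log2 difference between partners was 0.711 to 1.15 in the SW480-Tet2CD groups and 0.422 to 0.556 in the other 9 groups. Ribosomal protein genes took 10.9% to 16.1% of the counts in these 3 libraries and 6.18% to 10.0% in the other 21, and TET2 read lower there than in their partners. Counts that rest on them are mostly given with and without them, and single values only in part. Of the colon epithelial markers, KRT8, KRT18, EPCAM and CDH1 were read in every library, while KRT20 and CDX1 stayed at or under 3.19 CPM. The summed level of 5 blood cell markers was 0 to 7.87 CPM, that of 4 endothelial markers 2.82 to 18.8 CPM and that of 5 fibroblast markers 3.60 to 27.9 CPM, and the blood marker HBB and the endothelial marker KDR were at 0. In bulk samples fewer cells of a type and less RNA per cell cannot be told apart.

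Compared per length, in TPM (transcripts per 1000000 transcripts), the 10 genes spanned a wide range. NPM1, which encodes the nucleolar histone chaperone nucleophosmin, had the highest median level over the 24 libraries at 2588 TPM, followed by NCL, which encodes the major nucleolar protein nucleolin, at 860 TPM. MYC had a median of 326 TPM and ODC1, the rate-limiting enzyme of polyamine synthesis, 176 TPM. CAD, the enzyme that carries out the first steps of pyrimidine synthesis, stood at 74.1 TPM and MAX at 65.3 TPM. MXD1 had a median of 18.9 TPM. MYCL, first found in lung cancer, had a median of 4.28 TPM and MIR17HG 2.29 TPM. MYCN, the form known from neuroblastoma, had a median of 0.21 TPM and no count in 5 libraries. MYC was the most abundant of the 3 MYC genes in every library. The ranges of neighbours in this order overlapped throughout.

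In the GENCODE annotation of GRCh38, MYC lies on chromosome 8 (127735434 to 127741434), MYCN on chromosome 2 (15940564 to 15947007) and MYCL on chromosome 1 (39895426 to 39902256). MXD1 (69897688 to 69942945), CAD (27217390 to 27243943), ODC1 (10439968 to 10448504) and NCL (231453531 to 231483641) all lie on chromosome 2. MIR17HG spans 91347820 to 91354579 of chromosome 13, and NPM1 171387116 to 171411137 of chromosome 5. The values are for whole genes and do not resolve exons or isoforms.

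**Figure D1:**
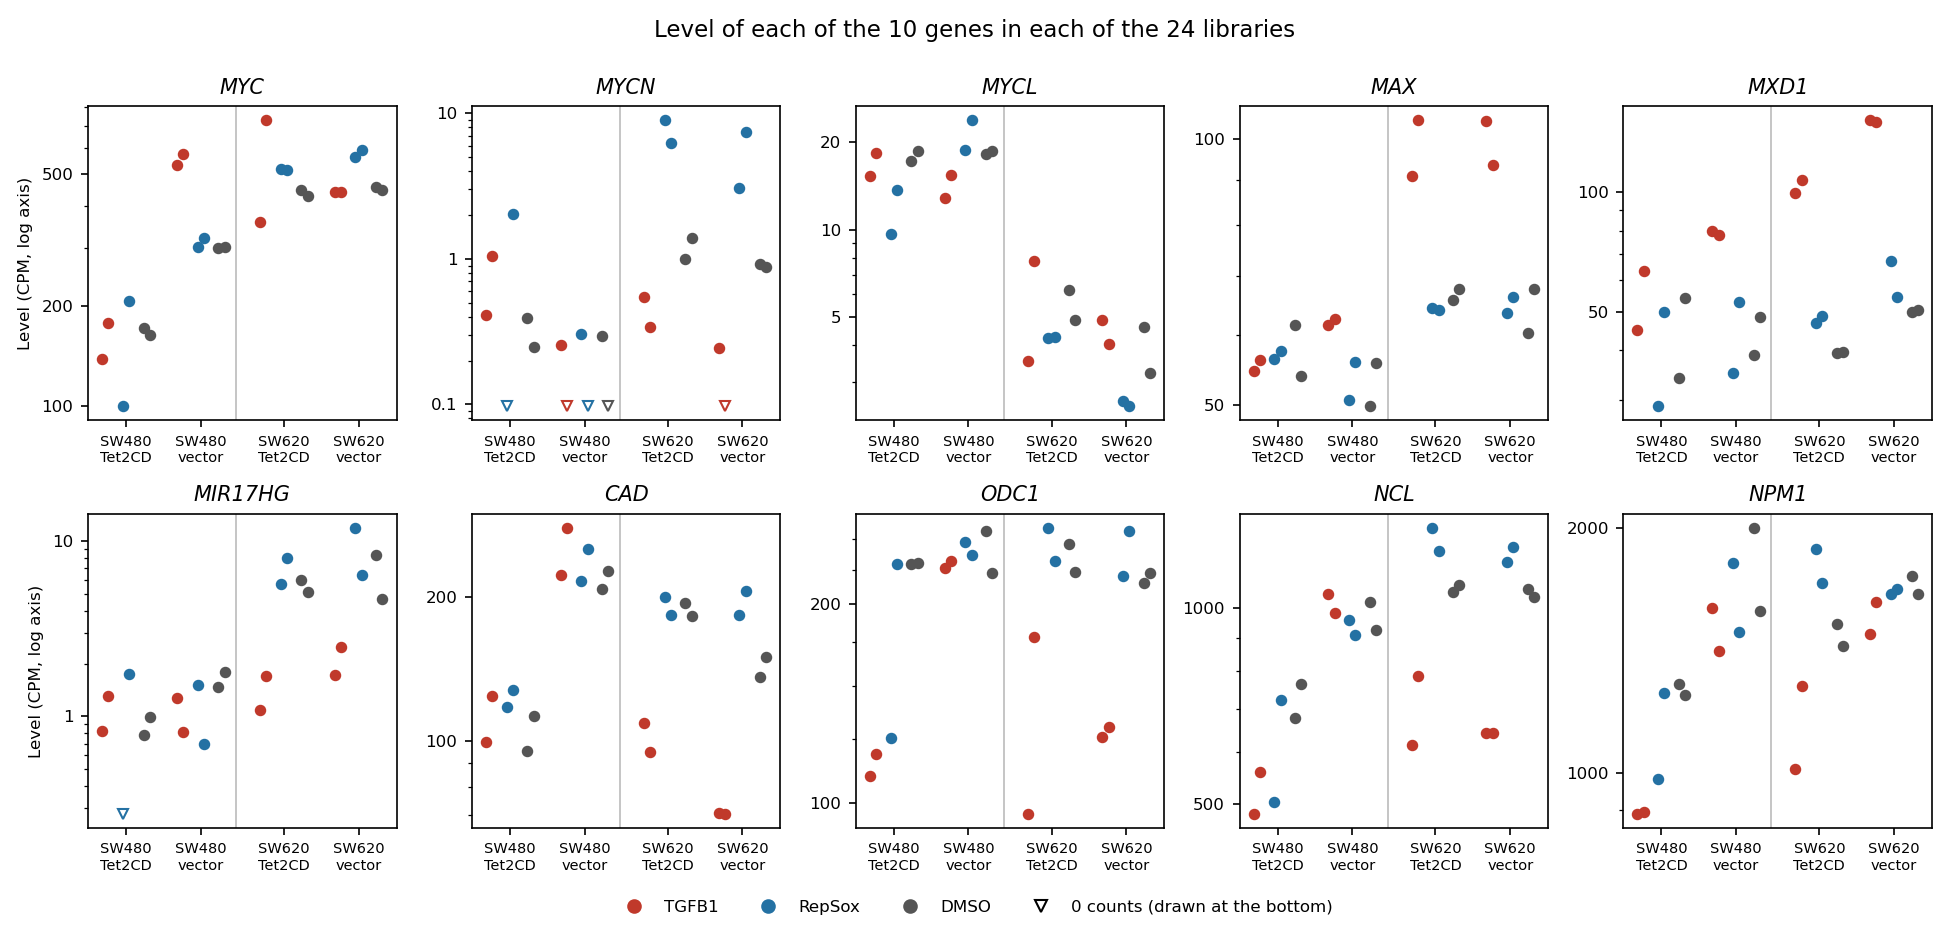
Level of each gene in CPM on a log axis, 1 point per library, for TGFB1, RepSox and DMSO (left to right) in SW480-Tet2CD, SW480-vector, SW620-Tet2CD and SW620-vector cells; open triangles are libraries with 0 counts. MYC in the 6 SW480-Tet2CD libraries (99.9 to 207 CPM) lies below all 6 SW480-vector libraries (299.8 to 575 CPM), and MXD1 with TGFB1 in SW620 lies above all RepSox and DMSO libraries of that line.

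The first comparison asks what Tet2CD did to these genes in each line. In SW480 MYC fell with Tet2CD to 0.43 times its vector level, together with 4 of the 5 target genes, CAD, ODC1, NCL and NPM1, while MAX and MXD1 were not called. In SW620 none of the 10 genes was called. The 6 members called in SW480 (5 lower, 1 higher) stand against 54.5% of all genes tested that were called in that comparison (25.3% lower, 29.2% higher), so that the share of the members called was near that of all genes. The median log2 fold change of the 10 genes was -0.36, against 0.03 over all genes tested, and it was -0.24 without the 3 SW480-Tet2CD replicate 1 libraries.

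MYC in SW480-Tet2CD cells had 138 and 178 CPM with TGFB1, 99.9 and 207 CPM with RepSox and 172 and 163 CPM with DMSO. In SW480-vector cells it had 536 and 575 CPM with TGFB1, 302 and 320.2 CPM with RepSox and 299.8 and 301 CPM with DMSO. The 6 Tet2CD libraries were all below the 6 vector libraries. Averaged over treatments the log2 fold change was -1.22 (SE 0.17, edgeR adjusted p = 3.6e-05), and it was between -1.45 and -1.09 whichever library was left out. Within treatments it was -1.81 with TGFB1 (SE 0.29, edgeR adjusted p = 6.27e-04), -1.01 with RepSox (SE 0.29, edgeR adjusted p = 0.0284) and -0.84 with DMSO (SE 0.29, edgeR adjusted p = 0.0854). The call with RepSox ended without SW480-Tet2CD RepSox replicate 1 (-0.60, adjusted p = 0.327) and without either SW480-vector RepSox library (adjusted p = 0.0768 and 0.156). Calls within 1 treatment were made for 24.7%, 19.3% and 6.79% of all genes with TGFB1, RepSox and DMSO.

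CAD was the target with the largest fall among the 5 in SW480. Its level was 99.4 and 124 CPM with TGFB1, 118 and 128 CPM with RepSox and 95.3 and 113 CPM with DMSO in SW480-Tet2CD cells. In SW480-vector cells it was 223 and 279 CPM, 216 and 253 CPM and 209 and 227 CPM with the same treatments. The 2 sets of libraries did not overlap. On the log2 scale the difference was -1.05 (SE 0.10, edgeR adjusted p = 7.32e-07), and CAD was the only one of the 10 genes called within each of the 3 treatments, at -1.17, -0.93 and -1.06 with TGFB1, RepSox and DMSO.

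The nucleolar genes fell as well. NCL had 483 to 764 CPM in the 6 SW480-Tet2CD libraries (median 619) and 910 to 1052 CPM in the 6 SW480-vector libraries (median 971). Its log2 fold change was -0.67 (SE 0.10, edgeR adjusted p = 7.63e-05). NPM1 had 890 to 1284 CPM in SW480-Tet2CD cells (median 1113) and 1410 to 1998 CPM in SW480-vector cells (median 1588), a log2 fold change of -0.61 (SE 0.10, edgeR adjusted p = 1.73e-04). For neither gene did the 2 sets of libraries overlap. NPM1 has 45 pseudogene copies in the genome annotation, none of them listed in the tables, so that reads shared with a copy would be counted for NPM1.

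ODC1 was below its vector range in some treatments only. In SW480-Tet2CD cells it had 109.8 and 119 CPM with TGFB1, 125 and 229.7 CPM with RepSox and 229.5 and 230.5 CPM with DMSO. In SW480-vector cells all 6 libraries had between 222 and 257 CPM. The difference was therefore carried by the TGFB1 libraries and 1 RepSox library, and the DMSO libraries overlapped. The log2 fold change was -0.50 over treatments (SE 0.15, edgeR adjusted p = 0.00904), -1.0 with TGFB1 (edgeR adjusted p = 0.0114) and -0.06 with DMSO (edgeR adjusted p = 0.903). The call with TGFB1 ended without 1 of 3 libraries (SW480-Tet2CD TGFB1 replicate 1, adjusted p = 0.0851, or either SW480-vector TGFB1 library, adjusted p = 0.0602 and 0.0535).

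MAX averaged 56.7 ± 2.7 CPM in SW480-Tet2CD cells and 56.1 ± 5.3 CPM in SW480-vector cells (SD, n = 6 each), and the log2 fold change was 0.02 (SE 0.08). MXD1 averaged 46.0 ± 12.7 CPM and 55.6 ± 19.1 CPM in the same cells, with a log2 fold change of -0.22 (SE 0.15, edgeR adjusted p = 0.234). The call was not made for MXD1, except without SW480-Tet2CD RepSox replicate 2 (-0.39, adjusted p = 0.0334). MYCL had 9.69 to 18.6 CPM in SW480-Tet2CD cells and 12.8 to 23.8 CPM in SW480-vector cells, and MIR17HG 0 to 1.75 CPM and 0.699 to 1.79 CPM in the same cells, and neither was called. MYCN passed the threshold (edgeR adjusted p = 0.0489), but on 14 counts in the 6 SW480-Tet2CD libraries and 3 counts in the 6 SW480-vector libraries. The ratio of those counts, scaled to library size, was 5.87 (95% exact interval 1.64 to 31.8, counting error only), and 7 of the 14 came from the RepSox replicate 2 library, without which the call ended (adjusted p = 0.905). It also ended without 7 other libraries (both DMSO and both TGFB1 libraries of the Tet2CD cells and the 3 replicate 2 libraries of the vector cells), with adjusted p between 0.0541 and 0.152.

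Without the 3 SW480-Tet2CD replicate 1 libraries the same 5 genes were lower and none was higher in SW480, where that fit called 38% of 15793 genes tested. MYC then gave -0.59 with RepSox (adjusted p = 0.114) and -0.89 with DMSO (adjusted p = 0.0222). With the DMSO libraries alone in the contrast, CAD was the only one of the 10 genes called.

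In SW620 MYC averaged 500.4 ± 126.5 CPM in SW620-Tet2CD cells and 492 ± 68.6 CPM in SW620-vector cells (SD, n = 6 each), a log2 fold change of 0.03 (SE 0.16). Called genes made up 0.314% of all genes tested there. CAD was at 0.30 (SE 0.10, edgeR adjusted p = 0.353) and MXD1 at -0.41 (SE 0.15, edgeR adjusted p = 0.466), and both passed the threshold without the 3 SW480-Tet2CD replicate 1 libraries in the fit (adjusted p = 0.0321 and 0.0168), which share the estimate of the spread. The effect of Tet2CD itself differed between the lines for 4 of the 10 genes, where 20.2% of all genes were called (9.93% in this direction). It was lower in SW480 by -1.36 for CAD (SE 0.14, edgeR adjusted p = 8.77e-06), -1.25 for MYC (SE 0.23, edgeR adjusted p = 0.00224), -0.75 for NCL (SE 0.14, edgeR adjusted p = 0.00232) and -0.43 for NPM1 (SE 0.14, edgeR adjusted p = 0.0407) on the log2 scale. The call for NPM1 ended in 15 of the 24 fits that left out 1 library, with an adjusted p of at most 0.0663, while those for CAD, MYC and NCL held in all 24. ODC1, at -0.58 and not called (adjusted p = 0.0548), passed with DESeq2 (0.0313), with no filter on low counts (0.0191) and with a replicate block (0.0401). ODC1 and MYCL both passed without SW620-Tet2CD TGFB1 replicate 1 (adjusted p = 0.0154 and 0.0170), SW480-Tet2CD TGFB1 replicate 2 (0.0327 and 0.0336) or SW480-Tet2CD RepSox replicate 2 (0.00302 and 0.0222). Without the 3 SW480-Tet2CD replicate 1 libraries MXD1 was called in the other direction, at 0.45 (adjusted p = 0.0344), beside the same 4 genes. With DMSO alone, the difference was called for CAD but not for MYC (-0.79, adjusted p = 0.487), NCL (-0.46, adjusted p = 0.513) or NPM1 (-0.30, adjusted p = 0.651).

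**Figure D2:**
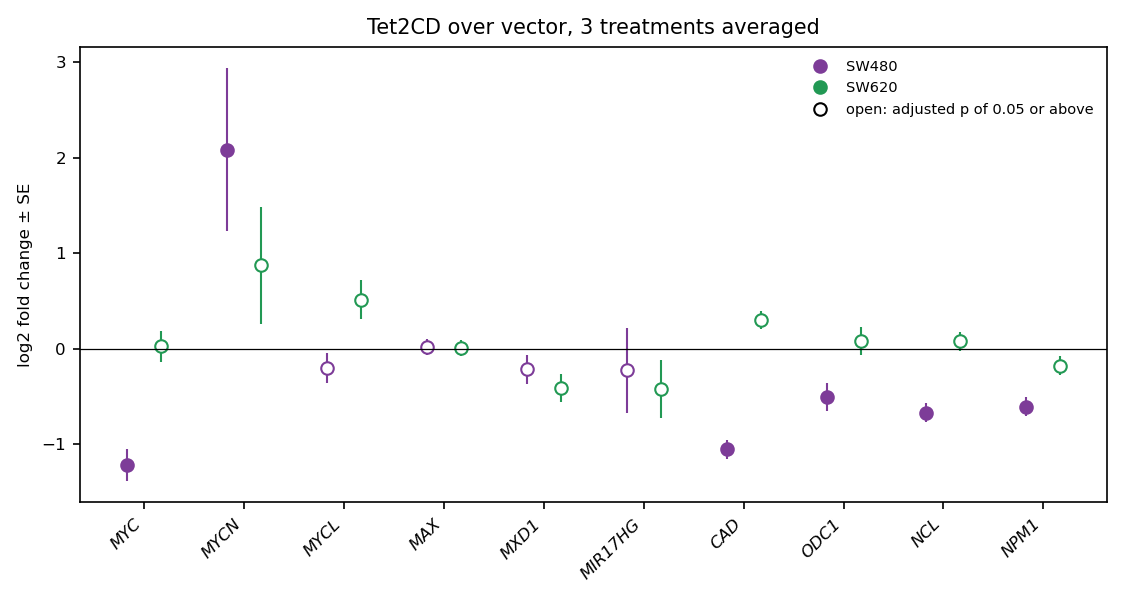
Log2 fold change of Tet2CD over vector, averaged over the 3 treatments, with its standard error, for SW480 (purple) and SW620 (green); open circles did not pass the threshold. MYC (-1.22) and CAD (-1.05) lie lowest in SW480, and all 10 genes are open in SW620.

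Other genes of the pathway were taken from lists chosen by function, with earlier results of these data known. Of 16 partners in the MYC network 4 were higher and 5 lower with Tet2CD in SW480. Calls were common in this comparison, with 54.5% of all genes tested called (29.2% higher, 25.3% lower). MXD4, another repressor that pairs with MAX, rose by 2.13 on the log2 scale (adjusted p = 3.67e-09) and MXD3 by 1.35 (adjusted p = 2.95e-04), while MGA, a large MAX-binding repressor, fell, at -1.31 (adjusted p = 8.29e-05) and TRRAP, a scaffold of histone acetyltransferases that MYC recruits, fell as well, at -1.51 (adjusted p = 3.76e-04). In SW620 MXD4 was at -0.01, and the difference between the lines was 2.15 (SE 0.16, edgeR adjusted p = 7.3e-07). Of 14 genes of MYC turnover and control 1 was higher and 9 were lower in SW480, among them HUWE1, a ubiquitin ligase that targets MYC (-1.21), and AURKA, a kinase that stabilises MYCN (-0.50).

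Of 18 genes of pyrimidine and purine synthesis 1 was higher (DTYMK at 0.82) and 11 were lower in SW480, and the median was -0.34. These and the next counts stand against 54.5% of all genes tested that were called (29.2% higher, 25.3% lower). PRPS2 was at -1.06 and PAICS at -0.86. Of 24 other growth genes bound by MYC 3 were higher (SLC3A2 at 0.42, E2F1 at 0.41) and 10 lower (HSPD1 at -0.75, LDHA at -0.65). Of 26 nucleolar genes of ribosome biogenesis 3 were higher (RRP9 at 0.70, BOP1 at 0.51) and 11 lower. NOLC1 was at -1.20 and DKC1, the pseudouridine synthase dyskerin, at -0.83. Without the 3 SW480-Tet2CD replicate 1 libraries these counts were 0 higher and 10 lower, 0 and 15, and 0 and 15, in a fit that called 5998 of 15793 genes (38%), 2861 of them higher. Of 10 genes of polyamine synthesis and control 4 were higher and 3 lower, with AMD1 at -0.70 and ATP13A3 at -1.34, but 1 was higher and 4 were lower without the 3 libraries. SRM, the spermidine synthase, was higher at 0.69 (adjusted p = 0.0170), but it was at -0.02 without those 3 libraries. The ribosomal protein genes moved with these libraries: 23 of 30 were higher with Tet2CD in SW480 (median 0.63), and 0 were higher and 3 lower without the 3 libraries (median -0.05). Of 9 genes repressed by MYC 3 were higher (TXNIP at 0.78, GADD45B at 0.46) and 1, NDRG1, was lower (-0.90). Without the 3 libraries 1 was higher and 1 lower. Of the colon epithelial markers 6 of 7 tested were higher with Tet2CD in SW480, of the endothelial markers 2 of 2 and of the fibroblast markers 1 of 3. Without the 3 libraries these were 4 of 7, 1 of 3 and 1 of 3. The part of these markers and of the ribosomal protein share in the other values was not tested.

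The second comparison asks how the genes answered TGFB1. In SW620 MXD1 and MAX rose and the targets MIR17HG, CAD, ODC1 and NCL fell with TGFB1, while MYC itself was not called. This made 6 of 10 genes called (2 higher, 4 lower), where 15.6% of all genes tested were called (8.32% higher, 7.27% lower). The median log2 fold change of the 10 genes was -0.46, against 0.01 over all genes. In SW480 none of the 10 was called, where 1.05% of all genes were. Without the 3 SW480-Tet2CD replicate 1 libraries, in a fit that called 6.34% of all genes there, MXD1 was higher (0.53, adjusted p = 0.0248) and ODC1 lower (-0.52, adjusted p = 0.0482) in SW480, and with DESeq2 NPM1 was lower (-0.37, adjusted p = 0.0223).

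MXD1 in SW620 had 99.7 and 107 CPM with TGFB1, against 39.5 and 39.6 CPM with DMSO, in Tet2CD cells. In vector cells it had 151 and 150 CPM with TGFB1, against 49.8 and 50.4 CPM with DMSO. All 4 TGFB1 libraries were above all 4 DMSO libraries. On the log2 scale the difference was 1.49 (SE 0.18, edgeR adjusted p = 4.64e-05), which held whichever library was left out. It was 1.39 in Tet2CD cells and 1.59 in vector cells, and the difference between the constructs was -0.20 (SE 0.36). Within 1 construct, where MXD1 was called, so were 4.79% of all genes in Tet2CD cells and 4.97% in vector cells, and these calls ended without either DMSO library of the construct (adjusted p = 0.0513 to 0.102).

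MAX in SW620-Tet2CD cells had 91.0 and 105 CPM with TGFB1, against 65.8 and 67.6 CPM with DMSO. In SW620-vector cells it had 105 and 93.6 CPM with TGFB1, against 60.4 and 67.7 CPM with DMSO. The log2 fold change was 0.59 (SE 0.10, edgeR adjusted p = 8.09e-04), and the 2 sets did not overlap. MAX lies on the minus strand of chromosome 14 (positions 65006174 to 65102695) and is overlapped on the other strand by FNTB, the beta subunit of farnesyltransferase, and by 3 further annotated genes. The library kit does not mark strand, so that reads from the shared stretch cannot be told apart. FNTB rose as well, by 0.74 (SE 0.13, edgeR adjusted p = 8.26e-04), with 27.5 to 34.8 CPM in the 4 TGFB1 libraries, against 17.3 to 19.8 CPM in the 4 DMSO libraries. MXD1 is overlapped on the same strand by SNRNP27, which was not called (-0.18, adjusted p = 0.437).

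The targets were lower. CAD in SW620 had 109 and 94.6 CPM with TGFB1, against 194 and 183 CPM with DMSO, in Tet2CD cells. In vector cells CAD had 70.5 and 70.4 CPM with TGFB1, against 136 and 149.8 CPM with DMSO. Its log2 fold change was -0.95 (SE 0.12, edgeR adjusted p = 4.95e-05), with no overlap.

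NCL had 615 and 786 CPM with TGFB1, against 1058 and 1086 CPM with DMSO, in SW620-Tet2CD cells. In SW620-vector cells it had 642 and 643 CPM with TGFB1, against 1069 and 1039 CPM with DMSO. On the log2 scale the difference was -0.66 (SE 0.12, edgeR adjusted p = 0.00135). NPM1, the other nucleolar gene, gave -0.25 (SE 0.12, edgeR adjusted p = 0.177), and its libraries overlapped.

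ODC1 had 96.4 and 178 CPM with TGFB1, against 246 and 223 CPM with DMSO, in SW620-Tet2CD cells. In SW620-vector cells it had 126 and 130.2 CPM with TGFB1, against 215 and 222 CPM with DMSO. The 2 TGFB1 libraries of the Tet2CD cells lay far apart, yet both were below all 4 DMSO libraries. The log2 fold change was -0.77 (SE 0.18, edgeR adjusted p = 0.00704).

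MIR17HG was read at few counts. In SW620-Tet2CD cells it had 1.09 and 1.69 CPM with TGFB1, against 5.96 and 5.13 CPM with DMSO. In SW620-vector cells it had 1.71 and 2.47 CPM with TGFB1, against 8.36 and 4.69 CPM with DMSO. A count of 3 in a library was worth 0.675 to 1.82 CPM. On the log2 scale the difference was -1.80 (SE 0.39, edgeR adjusted p = 0.00479), and it was between -2.02 and -1.60 whichever library was left out. Outside the DMSO and RepSox libraries of SW620 the highest level of MIR17HG was 2.47 CPM. MIR17HG thus passed the filter on low counts only through groups in which it was high. All 6 calls in SW620 held in each of the 8 fits that left out 1 library. With the vector libraries alone in the contrast those for MIR17HG (-1.61, adjusted p = 0.0901) and ODC1 (-0.77, adjusted p = 0.0904) were lost. With the SW620 libraries alone in the fit NPM1 (-0.26, adjusted p = 0.0093) and MYCN (-2.0, adjusted p = 0.0441) were called lower as well.

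MYC in SW620-Tet2CD cells had 360 and 728 CPM with TGFB1, against 449 and 429 CPM with DMSO. In SW620-vector cells it had 443 and 444 CPM with TGFB1, against 459 and 449.5 CPM with DMSO. The 2 TGFB1 libraries of the Tet2CD cells lay on either side of their DMSO libraries, and the vector libraries differed by little. The log2 fold change was 0.14 (95% interval -0.30 to 0.57, edgeR adjusted p = 0.71), and leaving out 1 library moved it between -0.17 and 0.36. In TPM, which compares genes per length, the level of MXD1 was 8.20% to 17.0% of that of MYC in the 4 TGFB1 libraries of SW620, against 4.03% to 6.62% in the 4 DMSO libraries.

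In SW480 MYC was not called, but its libraries separated in 1 of the constructs. In SW480-vector cells MYC read 536 and 575 CPM with TGFB1, against 299.8 and 301 CPM with DMSO, a log2 fold change of 0.89 (SE 0.28, edgeR adjusted p = 0.224). In SW480-Tet2CD cells the libraries overlapped (log2 fold change -0.08, SE 0.29), and the difference between the constructs was -0.97 (SE 0.40, edgeR adjusted p = 0.997). Calls were made for 0.536% of all genes in vector cells, 0.0915% in Tet2CD cells and 0.0131% for the difference. The value in vector cells passed the threshold without the 3 SW480-Tet2CD replicate 1 libraries (0.89, edgeR adjusted p = 0.00649). Those libraries are not part of this contrast, but share its filter, scaling and estimate of the spread. MXD1 in SW480-vector cells had 79.6 and 78.0 CPM with TGFB1, against 39.1 and 48.7 CPM with DMSO, a log2 fold change of 0.84 (SE 0.26) that likewise passed only without those 3 libraries (adjusted p = 0.194 with them and 0.00294 without).

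Between the lines, the effect of TGFB1 differed for CAD, by 1.11 on the log2 scale in SW480 minus SW620 (SE 0.17, edgeR adjusted p = 0.00253), where 2.07% of all genes were called (0.902% in this direction). CAD was at 0.15 in SW480 (SE 0.12) and at -0.95 in SW620. For MXD1 the difference was -0.92 (SE 0.26, edgeR adjusted p = 0.0837), and for MAX -0.51 (SE 0.14, edgeR adjusted p = 0.0889). Both passed the threshold in DESeq2 (adjusted p = 0.0125 and 0.0234) and without the 3 SW480-Tet2CD replicate 1 libraries (adjusted p = 0.00158 and 0.0442), and MXD1 also with a replicate block (0.0457) and without SW480-Tet2CD DMSO replicate 1 (0.0428) or TGFB1 replicate 2 (0.0463). NCL, at 0.46 (SE 0.17, edgeR adjusted p = 0.206), passed with DESeq2 (0.0380) and without the 3 libraries (0.0269). ODC1 was at -0.54 in SW480 (SE 0.18, edgeR adjusted p = 0.175, and 0.0482 without the 3 libraries) and at -0.77 in SW620, a difference of 0.24 (SE 0.25) that was not called.

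**Figure D3:**
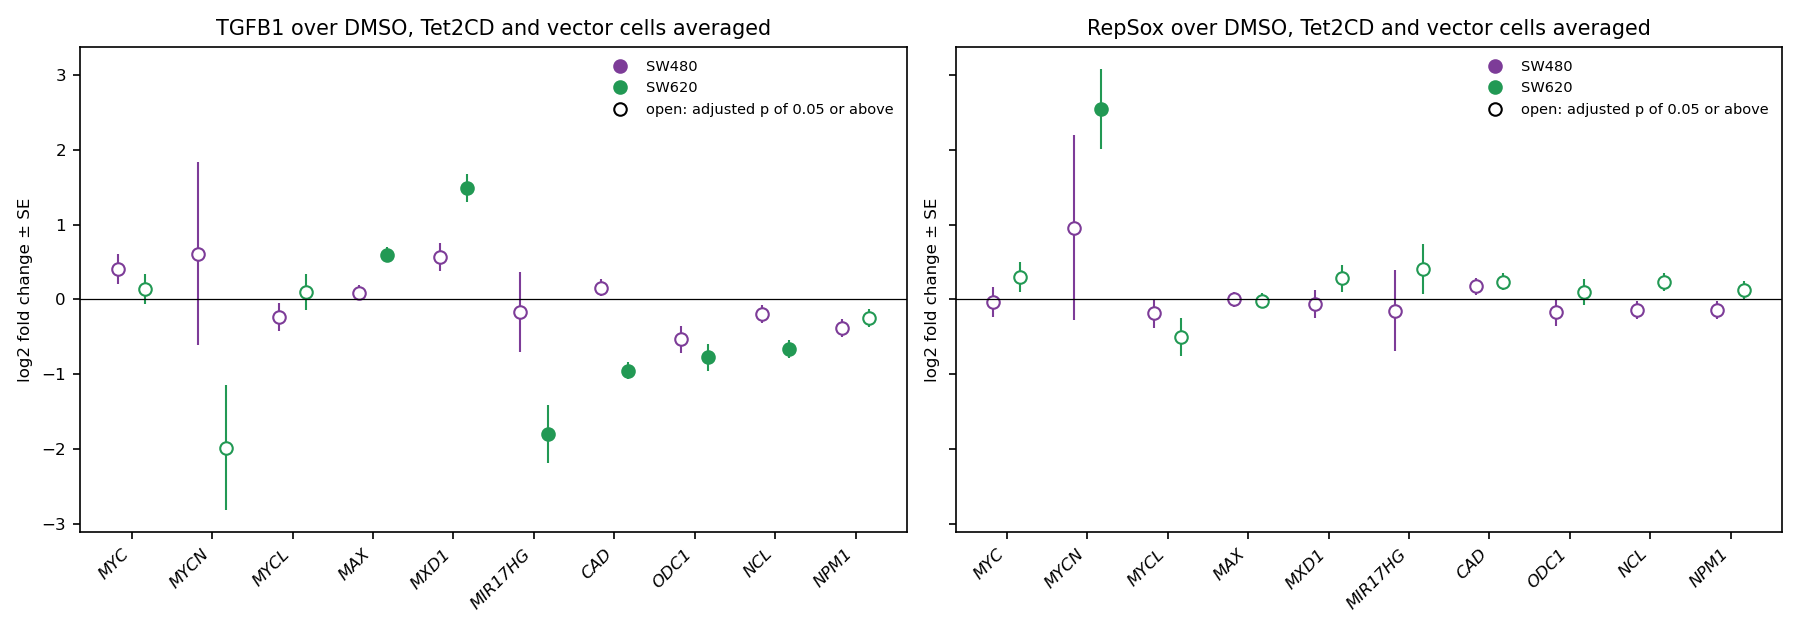
Log2 fold change with its standard error of TGFB1 over DMSO (left) and RepSox over DMSO (right), averaged over Tet2CD and vector cells, for SW480 (purple) and SW620 (green); open circles did not pass the threshold. With TGFB1 in SW620 MXD1 (1.49) and MAX (0.59) lie above 0 and MIR17HG (-1.80), CAD (-0.95), ODC1 (-0.77) and NCL (-0.66) below it.

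Of the genes around the members, 15 of 26 nucleolar genes fell with TGFB1 in SW620 and none rose, with a median of -0.66. Calls were made there for 15.6% of all genes tested (8.32% higher, 7.27% lower). RRS1, which acts in assembly of the large ribosomal subunit, was at -1.62 (adjusted p = 6.19e-07) and UBTF, a transcription factor of RNA polymerase I, at -1.0 (adjusted p = 1.87e-05). Of 18 genes of pyrimidine and purine synthesis 7 fell and none rose (CTPS1 at -1.12, PFAS at -1.06). Of the polyamine genes AMD1, which makes the aminopropyl donor, fell, at -1.25 and SMOX, a spermine oxidase, rose by 0.55. None of the 30 ribosomal protein genes was called in that line. The 3 SW480-Tet2CD replicate 1 libraries are not part of this contrast, but share its filter, scaling and estimate of the spread. Without them 34.1% of all genes were called in SW620, with 24 of 26 nucleolar genes and 12 of 18 genes of pyrimidine and purine synthesis lower. Of the polyamine genes 1 was then higher and 3 were lower, and 1 ribosomal protein gene was lower.

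Genes listed as repressed by MYC went the other way with TGFB1 in SW620: 7 of 9 rose and none fell, with a median of 0.84. Among all genes tested 8.32% were called higher there. NDRG1 rose by 2.46 (SE 0.14, adjusted p = 2.24e-08) and CDKN1A, the cell cycle inhibitor p21, by 1.34 (SE 0.17, adjusted p = 6.53e-05). CDKN2B, the inhibitor p15, named after its values were seen, rose by 0.98 (SE 0.15, adjusted p = 3.79e-04). In SW480 NDRG1 rose by 1.28 (SE 0.13, adjusted p = 2.63e-04), and the other 8 were not called. CDKN1A was at -0.11 in SW480, and the difference between the lines was -1.44 (SE 0.21, edgeR adjusted p = 0.00197).

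Of the network partners, MXI1, a relative of MXD1 that also pairs with MAX, rose with TGFB1 in SW620 by 1.25 (SE 0.21, adjusted p = 6.19e-04), and SKP2, a ubiquitin ligase subunit that acts on MYC, fell, at -1.05 (SE 0.17, adjusted p = 4.52e-04), with 1 of 16 partners higher and 4 lower. Of the genes of MYC turnover and control PIM1, a kinase that cooperates with MYC, rose by 1.87 (adjusted p = 2.22e-05) and USP28, which removes ubiquitin from MYC, by 1.01 (adjusted p = 0.00989), while AURKA fell, at -0.56 (adjusted p = 0.00808). Of the other growth genes 2 were higher (TFRC at 1.35, LDHA at 0.49) and 9 lower (CDC25A, a phosphatase that drives the cell cycle, at -1.19), against 4 higher and 14 lower without the 3 libraries, where the network partners had 2 higher and 7 lower. In SW480 LDHA, at 0.81, was the only one of the 24 called, and without the 3 libraries 2 were higher and 1 lower. Of the markers 1 of 7 colon epithelial, 1 of 2 endothelial and 1 of 3 fibroblast genes tested were higher with TGFB1 in SW620 (3 of 7, 1 of 3 and 1 of 3 without the 3 libraries), and their part in these values was not tested. The difference between the lines was called for 5 of the 26 nucleolar genes, all with the higher log2 fold change in SW480, among them RRS1 (1.56, adjusted p = 2.82e-04) and POLR1A (1.02, adjusted p = 0.0206), with 15 of 26 called without the 3 SW480-Tet2CD replicate 1 libraries.

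**Figure D4:**
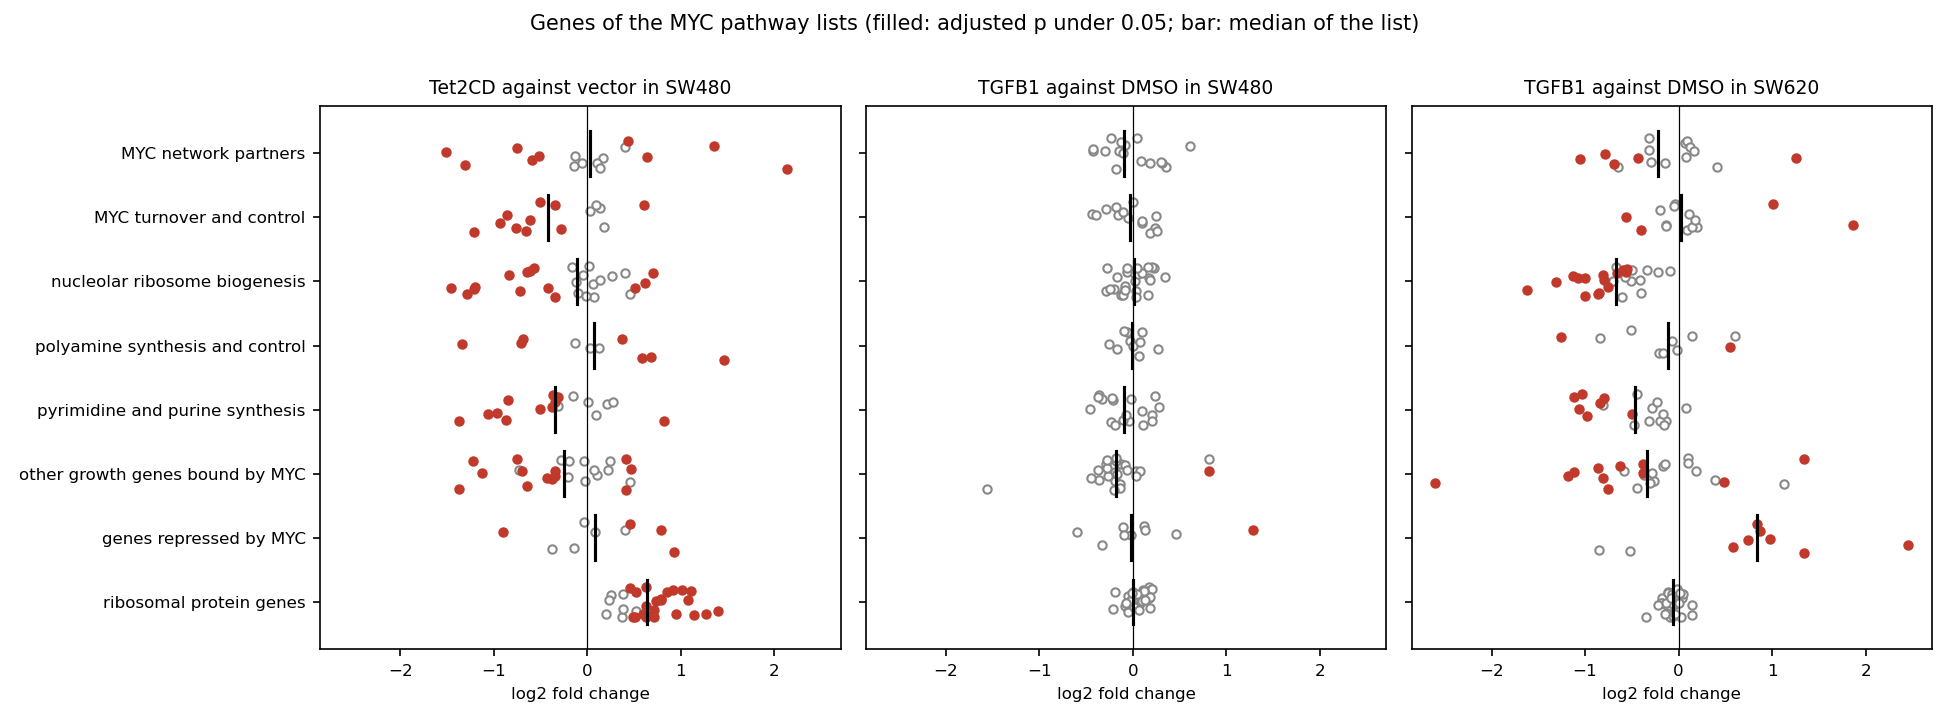
Log2 fold change of each gene of the 8 lists (rows) for Tet2CD over vector in SW480, TGFB1 over DMSO in SW480 and TGFB1 over DMSO in SW620 (left to right); filled points passed the threshold and the bar is the median of the list. The nucleolar genes (median -0.66) and the genes repressed by MYC (median 0.84) lie on opposite sides of 0 with TGFB1 in SW620, and the ribosomal protein genes lie above 0 with Tet2CD in SW480 (median 0.63).

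The third comparison asks how the genes answered the receptor inhibitor. In SW620 1 of the 10 genes was called with RepSox, MYCN, which rose, where 4.66% of all genes were called (1.99% higher). In SW620-Tet2CD cells MYCN had 8.95 and 6.27 CPM with RepSox, against 0.993 and 1.40 CPM with DMSO. In SW620-vector cells it had 3.09 and 7.45 CPM with RepSox, against 0.928 and 0.880 CPM with DMSO. All 4 RepSox libraries were above all 4 DMSO libraries, and the log2 fold change was 2.55 (SE 0.53, edgeR adjusted p = 0.00947). Outside these 4 RepSox libraries the highest level of MYCN was 2.04 CPM. MYCN thus passed the filter on low counts only through the RepSox groups of SW620, in which it was then called higher. The level was low, and leaving out 1 of 5 libraries ended the call (SW620-Tet2CD DMSO replicate 1, SW620-Tet2CD RepSox replicate 1, SW620-vector RepSox replicate 2 and both SW620-vector DMSO libraries), with adjusted p between 0.0552 and 0.0689 and log2 fold changes of 2.17 to 2.56 in those fits. With TGFB1 MYCN was at 0.543 and 0.339 CPM in SW620-Tet2CD cells and 0.245 and 0 CPM in SW620-vector cells, which is below DMSO in all 4 libraries, but the difference was not called (adjusted p = 0.121). MYCNOS, which overlaps MYCN on the other strand of chromosome 2, had at most 2 counts in any group. The call also ended with the vector libraries alone in the contrast (2.47, adjusted p = 0.229). The other 9 genes were not called with RepSox in SW620, but MXD1 (0.27, adjusted p = 0.0448) and CAD (0.22, adjusted p = 0.0488) passed with the SW620 libraries alone in the fit. Their log2 fold changes lay between -0.50 for MYCL and 0.40 for MIR17HG, and MYC was at 0.30 (SE 0.20, edgeR adjusted p = 0.537), with 517 to 595 CPM in the 4 RepSox libraries, against 429 to 459 CPM in the 4 DMSO libraries. Of the markers 1 of 7 colon epithelial and 1 of 3 fibroblast genes tested were lower and 1 of 2 endothelial genes higher with RepSox in SW620, and their part was not tested.

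In SW480 none of the 10 genes was called with RepSox, nor any other gene at an edgeR adjusted p of 0.05 (0%), with 431 genes at an unadjusted p under 0.05 and 1 gene called by DESeq2. None of the 10 genes differed between the lines in its response to RepSox, where 1.01% of all genes were called. In SW620 SAT1, which acetylates spermidine and spermine, rose with RepSox by 0.69 (adjusted p = 0.00318) and RUVBL1, a helicase that binds MYC, by 0.59 (adjusted p = 0.0141), while MXD4 fell, at -0.59 (adjusted p = 0.0147). RUVBL1 was lower with TGFB1, at -0.69 (adjusted p = 0.00185). Both comparisons share the 4 DMSO libraries. Of the 24 other growth genes, 4 were higher and 1 lower with RepSox in SW620, where 4.66% of all genes tested were called. None of the 26 nucleolar genes or 18 genes of pyrimidine and purine synthesis was called. A fit without the SW480-Tet2CD replicate 1 libraries, which share only the filter, scaling and estimate of the spread with this contrast, called 15.7% of all genes there. It had 7 nucleolar and 8 pyrimidine and purine genes higher and none lower, and 10 growth genes higher and 1 lower. None of the 30 ribosomal protein genes was called in either fit.

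The 2 lines also differed without Tet2CD. In vector cells 6 of the 10 genes were called between SW480 and SW620 (2 higher, 4 lower), where 58.9% of all genes were (28.9% higher, 30% lower). With DESeq2 3 were higher and 5 lower, as also without the 3 SW480-Tet2CD replicate 1 libraries, where 69.9% of all genes were called. A replicate block or no filter gave 3 higher and 4 lower, and RLE scaling 3 and 3. The DMSO libraries alone in the contrast gave 2 higher and 1 lower. MYCL in SW480-vector cells had 12.8 to 23.8 CPM over the 6 libraries (median 18.5), against 2.48 to 4.90 CPM in SW620-vector cells (median 3.64). Its log2 fold change was 2.31 (SE 0.18, edgeR adjusted p = 1.26e-08), and the libraries did not overlap. CAD was higher in SW480-vector cells as well, with 209 to 279 CPM, against 70.4 to 206 CPM in SW620-vector cells (0.90, SE 0.10, edgeR adjusted p = 4.53e-07). MIR17HG was lower in SW480-vector cells, with 0.699 to 1.79 CPM (median 1.37), against 1.71 to 11.8 CPM in SW620-vector cells (median 5.54), a log2 fold change of -2.0 (SE 0.35, edgeR adjusted p = 9.49e-05), with overlapping libraries. It passed the filter on low counts only through the DMSO and RepSox groups of SW620. MAX was lower, at -0.41 (SE 0.08, edgeR adjusted p = 4.25e-04), and MXD1 as well, at -0.53 (SE 0.15, edgeR adjusted p = 0.00562), with overlapping libraries, and neither was called with the DMSO libraries alone in the contrast (adjusted p = 0.156 and 0.615). The call for MXD1 also ended without SW480-vector RepSox replicate 1 (adjusted p = 0.0541). MYC was at -0.39 (SE 0.16, edgeR adjusted p = 0.0495), a call that ended in each of the 12 fits that left out 1 library, with adjusted p between 0.134 and 0.172. NCL was at 0.06 (SE 0.10) and NPM1 at 0.00 (SE 0.10). MYCN had 0 to 0.30 CPM in SW480-vector cells, against 0 to 7.45 CPM in SW620-vector cells. ODC1 had 222 to 257 CPM and 126 to 257 CPM in the same cells, and neither was called in the main fit.

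Ordered by the mean of the 2 libraries, MYC was lowest in the 3 SW480-Tet2CD groups, at 154 ± 75.9 CPM with RepSox, 158 ± 28.3 CPM with TGFB1 and 168 ± 6.4 CPM with DMSO, which did not differ beyond their spread. The next were SW480-vector cells with DMSO and RepSox, at 300.3 CPM and 311 CPM. The 6 SW620 groups lay at 439 CPM or above, with SW480-vector cells with TGFB1 (555 ± 27.6 CPM) among them.

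The genes whose pattern was most like that of MYC over the 12 groups, each gene centred on the mean of its line, were SMYD4 (Pearson r = 0.983), STK35 (0.982), FERMT1 (0.982), SLC38A1 (0.978) and SIK2 (0.975), among 10591 genes searched. For MIR17HG they were GEN1 (0.963), TUBGCP5 (0.956), TOMM20 (0.935), MCM6 (0.933) and PRORP (0.931), among 15081 genes. Within the 10 genes, NCL followed ODC1 (0.936) and CAD (0.927), and MIR17HG ran against MAX (-0.915), while MYC had 0.688 with CAD, 0.658 with NCL and 0.295 with MXD1. These are descriptions over 12 group means that share libraries, lines and scaling.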

How the data were processed

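RNA-seq was run on 24 libraries (TRIzol RNA, TruSeq RNA kit v2, NextSeq 500). Per the labels and the study's methods, the authors trimmed reads with Trimmomatic, aligned them to an Ensembl transcriptome with bowtie2 and RSEM and normalised for GC content, and no source says at which step. The submitters' processing notes name mm10, but the gene IDs are human Ensembl IDs. The deposited tables hold, per the file headers, RSEM expected counts and TPM per gene, made by the authors, 1 table per library. Agents, doses and duration follow the labels. The study's text differs in the TGF-beta isoforms and dose and, for both agents, in the duration.

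Expected counts were rounded and tested with edgeR 4.0.16 (R 4.3.3, quasi-likelihood test, TMM scaling, filterByExpr, 1 fit over all 12 groups with 12 residual degrees of freedom). Benjamini-Hochberg adjusted p-values cover all 15302 genes tested of 33382 listed, and a call is an adjusted p under 0.05. The biological coefficient of variation was 21.3%. CPM are counts per 1000000, scaled by TMM, and levels between genes were compared in TPM. Totals of 2146123 to 4410567 counts per library limit the precision of low genes, and 3 counts were taken as the floor. Symbols were matched by ID for 97.3% of the genes. The code was tested on simulated data. Alternatives were DESeq2 1.42.0, RLE scaling, no filter, a replicate block, subsets of libraries, and leaving out each library. Contrasts within 1 construct or 1 treatment and interactions of construct and drug were added after seeing the data.

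The members and gene lists were chosen with earlier results of these data known. Besides the members, list genes were named by smallest p, from up to 2 that rose and 2 that fell per list and comparison. They had a mean of at least 10 CPM. Not all genes that met this rule are printed, and none are for the 2 lines compared in vector cells. For likeness, log2(CPM + 0.5) group means were centred on the mean of each line, over genes with a mean of at least 10 CPM for MYC and 1 CPM for MIR17HG. Promoter and miRNA sequences are from RefSeq. FPKM values in the tables were not used here.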

Additional observations from a re-analysis of the deposited data

Results flagged for a closer look

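The effect of Tet2CD differed between the lines by the test of the difference itself for 4 of the 10 genes. All 4 were lower in SW480, where 20.2% of all genes tested were called (9.93% in this direction). With the DMSO libraries alone in the contrast, CAD was the only 1 of them called. The call for NPM1 did not hold in all fits that left out 1 library. In SW480 minus SW620, on the log2 scale, the difference was -1.2463 for MYC (SE 0.2322, edgeR adjusted p = 0.00224), -1.3558 for CAD (SE 0.1357, edgeR adjusted p = 8.77e-06), -0.7453 for NCL (SE 0.1398, edgeR adjusted p = 0.00232) and -0.4263 for NPM1 (SE 0.1389, edgeR adjusted p = 0.0407). The effect of TGFB1 differed for CAD, by 1.1092 (SE 0.1662, edgeR adjusted p = 0.00253), where 2.07% of all genes were called (0.902% in this direction).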

How the results depend on the processing

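Of 1889 values of the 10 genes under the alternatives, 1786 kept their side of the threshold, 58 lost a call and 45 gained one. None that was called in the main fit or in the alternative changed direction. A change of sign in a value called in neither fit was counted as kept. Of 2565 values of called list genes, 2246 kept their call, 318 lost it and 1 changed direction, SRM with Tet2CD in SW480, at -0.0219 without the 3 SW480-Tet2CD replicate 1 libraries, against 0.69 with them. RLE scaling moved the median of all genes by less than 0.03 in every comparison. The cause of the changes that follow was not tested. Without the filter on low counts, 128 genes were called for Tet2CD in SW620, 316 for TGFB1 in SW480, 38 for RepSox in SW480 and 261 for the RepSox difference between lines. With DESeq2, 91 were called for Tet2CD in SW620, 404 for TGFB1 in SW480, 1 for RepSox in SW480, and 589 and 313 for the TGFB1 and RepSox differences. Without the 3 SW480-Tet2CD replicate 1 libraries, 450 were called for Tet2CD in SW620, 1001 for TGFB1 in SW480, 5383 for TGFB1 and 2479 for RepSox in SW620, and 1289 and 588 for the TGFB1 and RepSox differences. With the libraries of 1 line in the fit, 643 were called for Tet2CD, 5760 for TGFB1 and 2862 for RepSox in SW620, and 0 for TGFB1 in SW480. With DMSO libraries alone in the contrast, 1039 were called for Tet2CD in SW480, 4 in SW620, 74 for their difference and 5294 between the lines. With vector libraries alone, 82 were called for TGFB1 in SW480, 760 for TGFB1 and 132 for RepSox in SW620, and 69 and 8 for the differences.

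Leaving out 1 library gave 6861 to 9676 calls for Tet2CD in SW480, 14 to 43 in SW620 and 1926 (without SW480-vector RepSox replicate 2) to 6404 (without SW480-Tet2CD RepSox replicate 2) for their difference. It gave 49 to 279 for TGFB1 in SW480, 1515 to 1937 in SW620 and 128 to 431 for their difference, 0 to 11 for RepSox in SW480, 343 to 412 in SW620 and 63 to 776 for their difference, and 8344 to 8661 between the lines. Where it left 1 library in a group, that library was assumed to vary like the other groups. The labels give no replicate numbers. With the library-number set as a replicate block, 2672 genes were called for TGFB1 in SW620 and 8621 for Tet2CD in SW480. Whether the sets pair the libraries was not settled. Of 66 correlations of their deviations between groups 27 were over 0.1 (lowest -0.43, median 0.072, highest 0.853). Genes with few counts, MYCN and MIR17HG, are limited by depth.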
